A study of Homo sapiens with 4 samples.

Results

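The genes described here encode JARID2 and the core and accessory subunits of Polycomb repressive complex 2 (PRC2). They are JARID2, EZH1, EZH2, SUZ12, EED, RBBP4, AEBP2, MTF2, PHF19 and PHF1, taken by gene symbol from a table of 60048 human genes, and all 10 members had a row in it and passed the filter on low values. The group was put together with the comparison of auxin with control already known, JARID2 being the member whose signal differed most, so the group was selected on auxin-against-control values, and the folds of its members in that comparison are given as a description and support nothing. The assay was EU-seq, a sequencing of newly made RNA, in HCT116, a human colorectal carcinoma cell line, of genotype RAD21-mAC in every library. RAD21 belongs to cohesin, which holds DNA in loops, and its tagged protein is destroyed once auxin is present. The control group was given DMSO and held 2 libraries. The auxin group was given 0.5 mM indole-3-acetic acid (auxin) for 3 h, to deplete RAD21, and had 2 libraries as well. All cells were labelled for 20 min with 0.5 mM EU (5-ethynyl uridine), a uridine analogue through which newly made RNA is captured, and the duration of the DMSO treatment is not given in the sources used here. The labels do not say whether the libraries of a group came from separate cultures, so standard errors and p-values measure only the spread between these libraries, which may be technical.

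PRC2 is the enzyme that methylates lysine 27 of histone H3, the mark of repressed developmental genes. EZH2 or its paralogue EZH1 carries the catalytic SET domain, SUZ12 is the scaffold, EED binds the methylated product and stimulates the enzyme, and RBBP4 is a histone-binding protein shared with other chromatin complexes. The core joins exclusive sets of partners: JARID2 and AEBP2 mark one form of the complex, and a Polycomb-like protein (MTF2, PHF19 or PHF1) marks the other. JARID2 has a jumonji domain without demethylase activity and helps to bring PRC2 to its targets. EZH2 is known as a gene of dividing cells, carcinoma cells among them, and EZH1 as one of resting tissue.

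The deposited values are a scaled signal per gene, summed over the whole span with introns, and are not reads, so the depth in reads is unknown. Totals ranged from 61135244 to 93113007 on the deposited scale. Values below were divided by a trimmed-mean factor between 0.816 and 1.21 per library, which takes out any difference between libraries in overall nascent RNA, and are called the scaled signal. In such bulk samples, fewer cells with a signal and less signal per cell cannot be told apart. Of 39464 genes tested with limma, 289 had an adjusted p under 0.05 and are referred to as called (0.732% of those tested), 158 of them lower with auxin (0.4%) and 131 higher (0.332%). The epithelial keratin genes KRT8, KRT18 and KRT19 and the intestinal factor gene CDX2 had signal in every library, whereas LGR5, CDX1 and CEACAM5 were near 0. The summed signal per kb of 11 colorectal epithelial markers was 5111 and 5715 in control and 4535 and 4719 in auxin. That of 12 markers of blood, endothelium, fibroblasts and liver was 49.6 and 61.5 in control and 68.9 and 78.3 in auxin, most of it from COL1A1. KRT18 and KRT19 made up most of the epithelial sum. EPCAM, KRT8, KRT18, KRT19, KRT20 and VIL1 were lower in both auxin libraries than in both controls. CDH1 was higher in both, at 113 and 114 per kb in control and 164 and 168 in auxin. The other epithelial markers, CDX2 among them, overlapped. No marker was called, and the part of these marker levels in the results below was not tested.

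The start of JARID2 in the table (GRCh38 chromosome 6, base 15246069, plus strand) was also a RefSeq start site. The 250 bases before it, chr6:15245819-15246068, are shown because JARID2 is the only called member. CpG dinucleotides are in capitals, since CpG-rich promoters are the class of sequence that PRC2 itself is known to occupy.
JARID2 upstream, 5′ to 3′: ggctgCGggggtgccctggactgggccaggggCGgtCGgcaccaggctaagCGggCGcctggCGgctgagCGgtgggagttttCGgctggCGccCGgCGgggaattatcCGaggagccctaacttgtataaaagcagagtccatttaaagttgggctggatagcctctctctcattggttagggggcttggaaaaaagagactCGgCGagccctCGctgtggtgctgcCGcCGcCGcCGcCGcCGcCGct
This stretch held 22 CpG dinucleotides. In the RefSeq promoter windows (GRCh38.p14, 250 bases before to 50 after each start), JARID2 held 24 CpG, more than 66.1% of the 35116 windows of that length. All 10 members matched a window, and each had at least 16 CpG, against a median of 14 over all windows. PHF19 had the most, 48, and only PHF1 (19) and EED (16) had fewer than JARID2. The window at a further RefSeq start of JARID2, described below, held 40. The RefSeq start sites used for AEBP2 and PHF19 lie 925 and 17708 bases downstream of the start in the table, and the other 8 lie within 53 bases of it.

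What many of these windows held, and that of JARID2 did not, was a short E2F motif. E2F proteins are the transcription factors that switch on S-phase genes, and EZH2 and EED are known E2F targets. The letters searched, on both strands, were TTTGGCGC, TTTCCCGC, TTTGCCGC and TTTCGCGC. At least 1 match lay in the windows of 6 members, against 3.31% of all 35116 windows and 5.66% of the 16675 windows with at least 16 CpG. The 30 bases around each match are shown with the match in capitals, each read 5′ to 3′ on the strand of its gene.
EZH2, chr7:148884272-148884301, minus strand: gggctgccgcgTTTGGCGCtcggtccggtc
EZH1, chr17:42745137-42745166, minus strand: gcggggttttgGCGGCAAAtgacagtagtg
SUZ12, chr17:31936807-31936836, plus strand: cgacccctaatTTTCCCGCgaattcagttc
AEBP2, chr12:19440438-19440467, plus strand: caaggcgacgtTTTGCCGCgatccccctgc
MTF2, chr1:93079277-93079306, plus strand: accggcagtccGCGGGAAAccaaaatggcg
PHF19, chr9:120877322-120877351, minus strand: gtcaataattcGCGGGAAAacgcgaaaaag
The match began 2 bases into the transcript in EZH2 and 6 bases into it in MTF2, and 115 to 189 bases before the RefSeq start in the other 4. In AEBP2 and PHF19 the match lies downstream of the start in the table. The windows of JARID2, EED, RBBP4 and PHF1 held none of these letters. RefSeq lists a further start site for JARID2, 2786 bases downstream, and 1 each for EZH2, RBBP4 and PHF19, and none of these 4 further windows held a match. The letters AGGTGGCA or AGGGGGCG, cores of the CTCF motif searched on both strands, were in 9.88% of all windows. None of the 10 windows nearest to the starts in the table held them, and the further window of JARID2 held 1 match. CTCF is the DNA-binding protein at which cohesin stops. A match is a description of the sequence and not a measured binding site.

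JARID2 (ENSG00000008083, GRCh38 chromosome 6, 15246069 to 15522042, plus strand) fell with auxin. Its scaled signal was 36917 and 30522 in the control libraries and 12147 and 12211 in the auxin libraries. Both auxin libraries lay far below both control libraries, and they differed from each other by only 0.0076 on the log2 scale, against 0.27 between the controls. The mean went from 33719.5 ± 4522 to 12179 ± 45.2 (SD, n = 2 each), so the auxin level was 36.1% of control, 2.77-fold lower. The log2 fold change, fitted on log2(value + 1), was -1.46 (standard error, SE, 0.12). Each auxin library against each control library gave between -1.60 and -1.32. Among 17767 protein-coding genes tested, 0.304% had a lower log2 fold change. JARID2 was also strongly transcribed in control: 99.5% of these genes had less signal over their span, a figure that its length raises, and 65.2% had less per kb. Among called genes that fell, 13 had a higher control mean. On the deposited values with no further scaling (36891 and 30962 in control, 9908 and 14769 in auxin) the fitted change was -1.48 (SE 0.42) and JARID2 was not called.

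**Figure D1:**
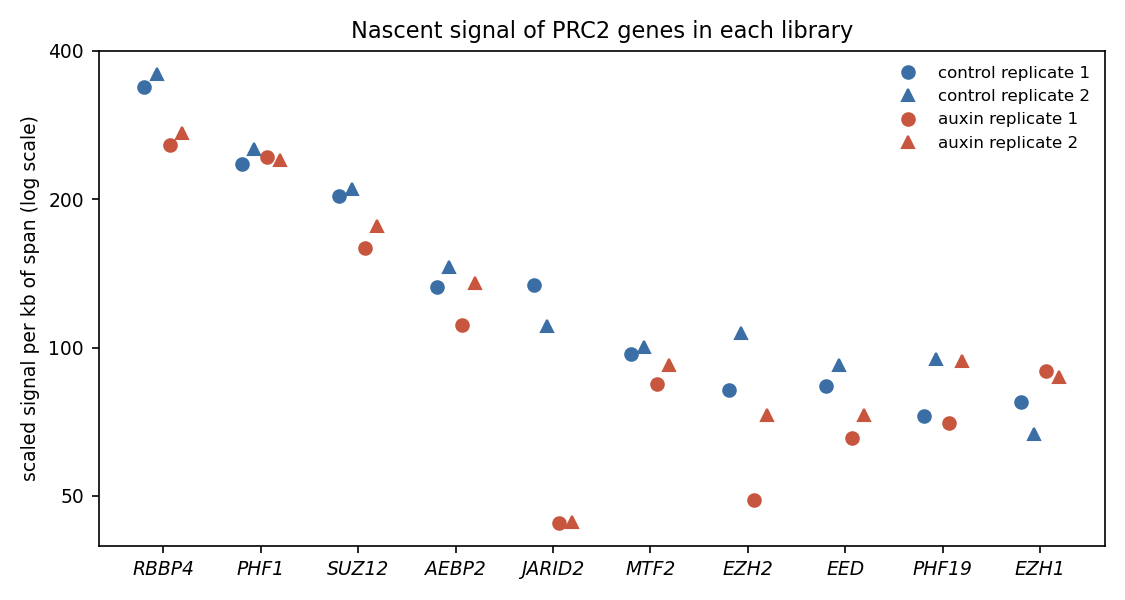
Scaled signal per kb of genomic span (log axis) for the 10 genes, ordered by control mean, with 1 point per library (blue control, red auxin, circles replicate 1, triangles replicate 2). JARID2 moves from 134 and 111 in control to 44.0 and 44.2 in auxin, the lowest levels in the plot, while EZH1 lies higher in both auxin libraries.

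The values of small genes inside JARID2 and just past it are given as a description. JARID2-AS1, an antisense lncRNA gene, lies 1746 to 2566 bases into JARID2. This antisense gene had 90.7 and 59.4 in control and 21.4 and 31.4 in auxin. It was not called (limma adjusted p = 0.161, log2 fold change -1.46, SE 0.39). Its signal per base was between 0.593 and 0.866 of that of JARID2 in the 4 libraries, and whether the counting used strand is not given in the sources used here, so the pair cannot be told apart. RNU6-645P, a small nuclear RNA pseudogene 78298 bases into JARID2, was too low to test, at 11.0 and 7.17 in control and 1.78 and 1.12 in auxin. RNU6-522P, 68851 bases in, was also untested, at 5.08, 3.07, 3.57 and 2.25 in the same order. Per base, both RNU6 pseudogenes had between 0.24 and 0.78 of the signal of JARID2. A 5S rRNA gene lies 152 bases past the end of JARID2. It had 88.2 and 71.6 in control and 32.1 and 37.1 in auxin (limma adjusted p = 0.192, log2 fold change -1.18, SE 0.34). Its signal per base was 6.11 to 7.90 times that of JARID2, and how much of it belongs to JARID2 cannot be told. For JARID2-AS1, RNU6-645P and the 5S rRNA gene both auxin libraries were below both controls, for RNU6-522P they overlapped, and none of the 4 was called.

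Other genes beyond the ends of JARID2 had other patterns. DTNBP1, which encodes dysbindin, ends 767 bases past JARID2 on the opposite strand and had 6034 and 5550 in control and 5389 and 5875 in auxin. Its groups overlapped (log2 fold change -0.041, SE 0.13), and the sign turned without control replicate 1 or auxin replicate 1 (0.029 in each case). AL136162.1, an lncRNA gene on the minus strand, starts 1068 bases before the start of JARID2 and runs away from it. This lncRNA gene had 52.6 and 25.6 in control and 30.3 and 12.4 in auxin, again overlapping. AL138720.1, an lncRNA gene 224 kb upstream, had values of the opposite direction, 879 and 1216 in control and 1615 and 2158 in auxin (limma adjusted p = 0.131; log2 fold change 0.85, SE 0.21). It was called, at 1.07, without auxin replicate 1, and lay between 0.63 and 1.09 without each of the other libraries. With a library left out, its group keeps 1 library that is assumed to vary like the other group, and without either auxin library limma also pooled the spread of all genes fully along 1 trend, so such calls are not those of a replicated comparison. Of 7 other tested genes within 500 kb of JARID2, none was called by limma, and 5 had a lower and 2 a higher value with auxin. An unadjusted limma p under 0.05 was found for 3, JARID2-AS1, the 5S rRNA gene and AL138720.1, against 10.2% of all genes tested. The first lies inside JARID2 and the second just past its end, so nothing is read from that count. CD83, a surface protein of activated immune cells and the nearest protein-coding gene upstream, at 1109 kb, had 1004 and 896 in control and 834 and 557 in auxin (limma adjusted p = 0.509; log2 fold change -0.48, SE 0.22).

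**Figure D2:**
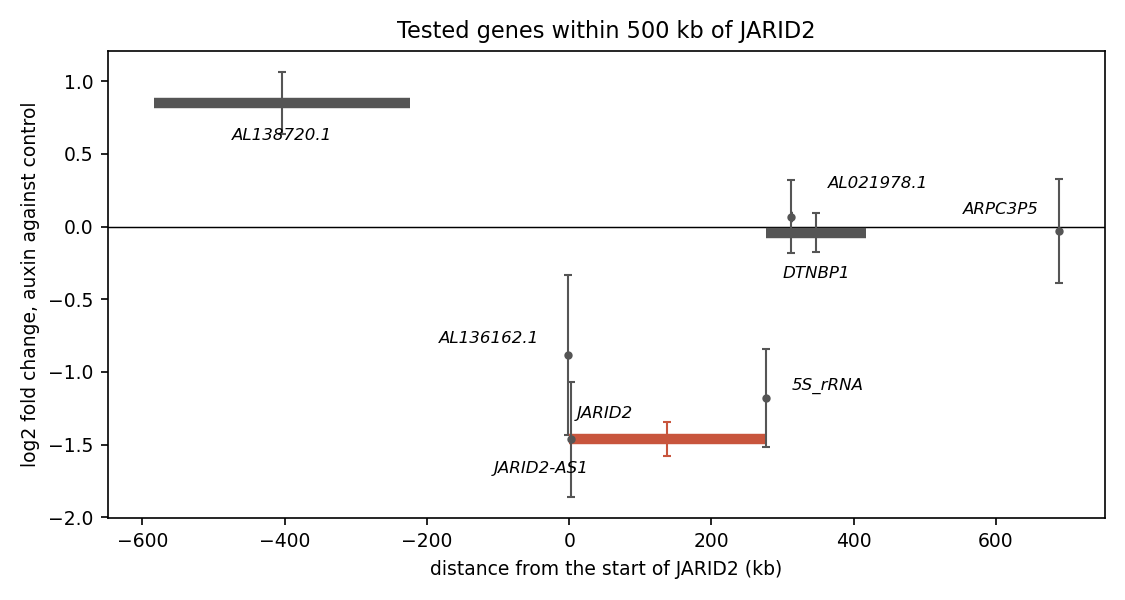
Log2 fold change of each tested gene within 500 kb of JARID2 against distance from the JARID2 start in kb. Thick lines span each gene, vertical bars are standard errors, and red marks JARID2, the called gene. JARID2, JARID2-AS1 and the 5S rRNA gene lie between -1.46 and -1.18, DTNBP1 near 0 and AL138720.1 at 0.85.

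JARID2 is the longest of the 10 genes, with a span of 276 kb, and PHF1 the shortest, with 5.49 kb. Of 570 other protein-coding genes with spans between 221 and 345 kb, 14 were called (2.46%, against 1.17% of all protein-coding genes tested), 10 lower (1.75%, against 0.681%) and 4 higher, and their median log2 fold change was -0.011. The difference between these shares, and the part of length in the values of JARID2, were not tested. A single gene among them had a lower value than JARID2: CNTNAP3B, at -1.56, which belongs to a family of near-identical copies and is therefore uncertain.

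**Figure D3:**
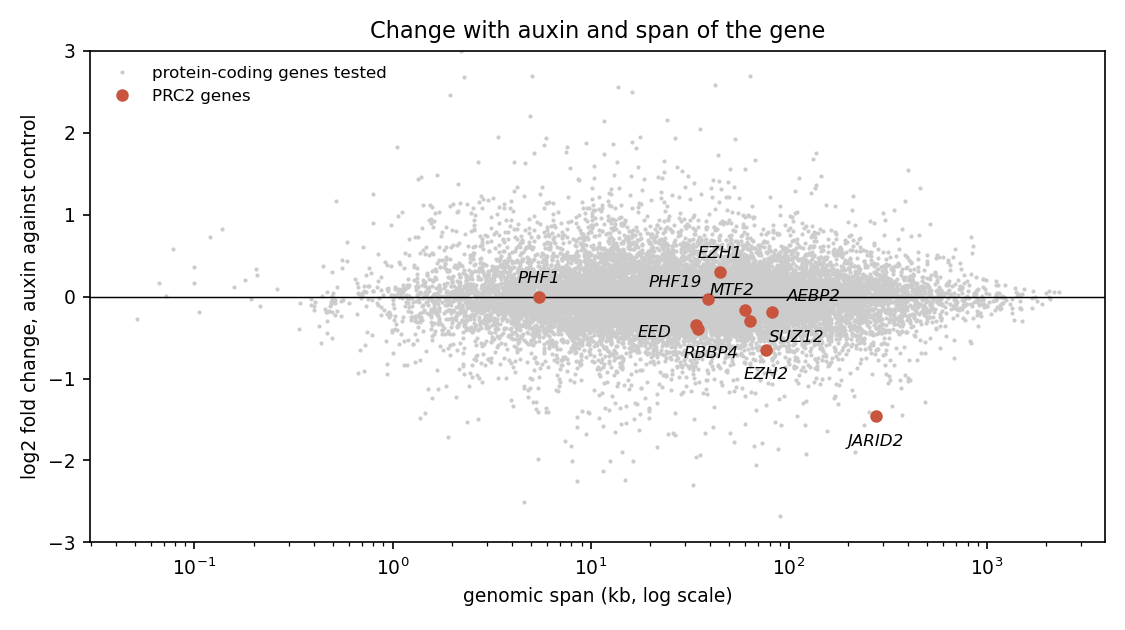
Log2 fold change against genomic span (log axis, kb) for 17767 protein-coding genes tested (grey, with 5 genes beyond 3 in either direction outside the axis) and the PRC2 genes (red). JARID2 lies at 276 kb and -1.46, apart from the 9 other genes, which lie between -0.65 and 0.30.

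The core subunits other than EZH1 had lower values with auxin, and no core subunit was called. EZH2 (ENSG00000106462, chromosome 7, 148807383 to 148884291, minus strand), the catalytic subunit of dividing cells, had 6294 and 8249 in control and 3766 and 5621 in auxin. The groups did not overlap, but replicate 2 was above replicate 1 by 0.39 (log2) in control and by 0.58 in auxin, and the 4 auxin-control library pairs ranged from -1.13 to -0.16. Its log2 fold change was -0.65 (SE 0.20). It was -0.94, and called, without auxin replicate 2, where the auxin group is 1 library and the spread comes from the control pair and the pooled trend, and -0.35 without auxin replicate 1. A signal recognition particle pseudogene inside EZH2 had values of the same direction (67.0 and 84.9, then 46.4 and 66.3). Its signal per base was 2.94 to 3.52 times that of EZH2. How much of it belongs to EZH2 cannot be told.

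RBBP4 (ENSG00000162521, chromosome 1, 32651208 to 32686211, plus strand) had 11825 and 12564 in control and 9002 and 9540.4 in auxin, a log2 fold change of -0.40 with a standard error of 0.12. The control and auxin libraries were well apart here, since the replicates differed by 0.087 (log2) in control and 0.084 in auxin. SYNC, an intermediate filament gene that overlaps RBBP4 on the other strand, did not move with it: it had 2593 and 2838 in control and 2702 and 2806 in auxin. SUZ12 (ENSG00000178691, chromosome 17, 31937007 to 32001038, plus strand) had 13006 and 13445 in control and 10175 and 11281 in auxin, a log2 fold change of -0.30 with a standard error of 0.12. EED (ENSG00000074266, chromosome 11, 86244753 to 86278810, plus strand) had 2845 and 3138 in control and 2237 and 2486 in auxin, a log2 fold change of -0.34 with a standard error of 0.15. In these 3 genes both auxin libraries were below both controls, at 76.0% of the control mean for RBBP4, 81.1% for SUZ12 and 78.9% for EED. EED and SUZ12 kept their ratio: per kb it was 0.411 and 0.439 in control and 0.413 and 0.414 in auxin, a ratio chosen after its values were seen.

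EZH1 (ENSG00000108799, chromosome 17, 42700275 to 42745042, minus strand), the less active catalytic paralogue, had the only positive fitted log2 fold change among the 10. The signs of PHF19 and PHF1 are not settled, as given below. EZH1 had 3473 and 2983 in control and 4014 and 3899 in auxin. Both auxin libraries were above both controls, with a log2 fold change of 0.30 and a standard error of 0.15, and it was not called. The ratio of EZH2 to EZH1 per kb was 1.05 and 1.61 in control and 0.546 and 0.839 in auxin, so EZH2 had the higher signal per kb in both control libraries and EZH1 in both auxin libraries. The ratio was not tested, and its control values differ from each other by more than the gap between the nearest control and auxin libraries.

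**Figure D4:**
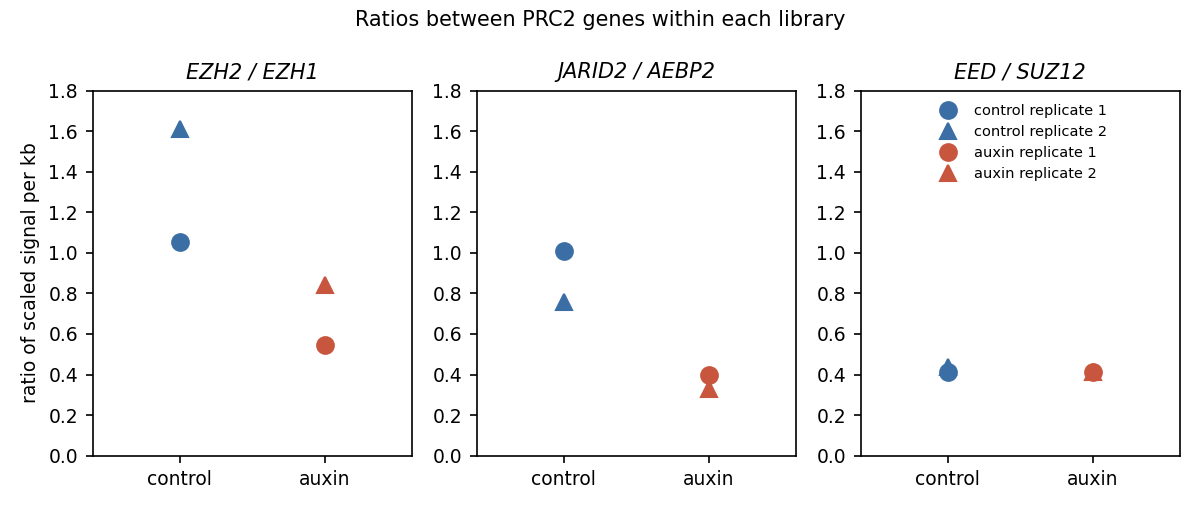
Ratios of scaled signal per kb between pairs of PRC2 genes within each library, which no scaling of libraries can alter. EZH2 to EZH1 and JARID2 to AEBP2 are lower in both auxin libraries than in both controls, and EED to SUZ12 lies between 0.411 and 0.439 throughout.

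AEBP2 (ENSG00000139154, chromosome 12, 19439674 to 19522239, plus strand), the zinc finger protein that accompanies JARID2 in the complex, did not show the fall of JARID2. It had 10973 and 12029 in control and 9160.1 and 11169 in auxin, and the groups overlapped (log2 fold change -0.18, SE 0.13; -0.033 without auxin replicate 1). The ratio of JARID2 to AEBP2 per kb was 1.01 and 0.759 in control and 0.397 and 0.327 in auxin. This ratio was lower in both auxin libraries than in either control.

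The Polycomb-like genes, whose products bind unmethylated CpG-rich DNA through a winged-helix domain, were near their control levels. MTF2 (ENSG00000143033, chromosome 1, 93079235 to 93139079, plus strand) had 5811 and 6002 in control and 5056 and 5503 in auxin. Its groups did not overlap, but the log2 fold change of -0.16 was close to its standard error of 0.13. PHF19 (ENSG00000119403, chromosome 9, 120855698 to 120894896, minus strand) had 2844 and 3717 in control and 2750.2 and 3689 in auxin. Replicate 2 was above replicate 1 by 0.39 in control and 0.42 in auxin, and the groups overlapped almost fully (log2 fold change -0.030, SE 0.19). PHF1 (ENSG00000112511, chromosome 6, 33410961 to 33416453, plus strand), which overlaps CUTA, had 1293 and 1388 in control and 1339 and 1321 in auxin (log2 fold change -0.010, SE 0.16). The signs of PHF19 and PHF1 are not settled: both turned with scaling by library total (0.0057 and 0.025) and without control replicate 2 (0.16 and 0.040), and PHF19 also without auxin replicate 1 (0.19). Of the summed signal per kb of the 3 genes, PHF1 made up 58.1% and 56.4% in control and 61.2% and 56.4% in auxin. MTF2 made up 24.0% and 22.4% in control and 21.2% and 21.6% in auxin. These shares depend on the division by span, without which PHF1 had the lowest signal of the 3 in every library.

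**Figure D5:**
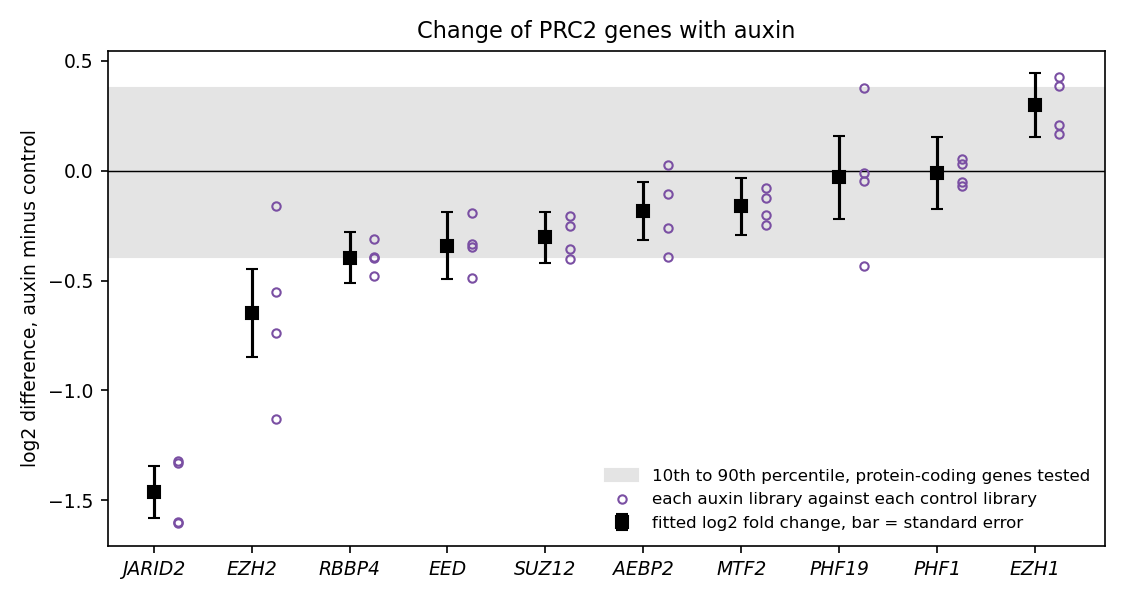
Fitted log2 fold change of each gene (black squares, bars are standard errors) and the log2 difference of each auxin library from each control library (open circles), over the range from the 10th to the 90th percentile of protein-coding genes (-0.39 to 0.37, grey). JARID2 and EZH2 lie below that range, RBBP4 at its lower edge and the 7 other genes inside it.

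Across the group, 1 of 10 genes was called, against 0.732% of all genes tested, and nothing is read from that share because JARID2 was chosen with its change known. Both auxin libraries lay below both controls for 6 members (JARID2, EZH2, RBBP4, EED, SUZ12 and MTF2), a pattern that 19.6% of all tested genes and 23.8% of the protein-coding ones showed. They lay above both controls for EZH1, against 18.6% and 20.5%, and overlapped for 3. The median log2 fold change was -0.24 over the 10 genes and -0.18 without JARID2, against 0.0089 over all genes tested.

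The order of the members by level was compared per kb of span, so that long genes were not favoured. In control RBBP4 was highest, at 348 ± 14.9 scaled signal per kb (SD, n = 2), followed by PHF1 at 244 ± 12.2 and SUZ12 at 207 ± 4.85. These 3 were separate from each other and from the rest in both control libraries. AEBP2 (139 ± 9.04) and JARID2 (122 ± 16.4) overlapped, and JARID2 was separate from MTF2 (98.7 ± 2.26). From there down each gene overlapped the next: EZH2 at 94.5 ± 18.0, EED at 87.8 ± 6.07, PHF19 at 83.7 ± 15.7 and EZH1 at 72.1 ± 7.74. For comparison, the median protein-coding gene tested had 62.9 in control. With auxin the same 4 genes led, at 265 ± 10.9 for RBBP4, 242 ± 2.43 for PHF1, 168 ± 12.2 for SUZ12 and 123 ± 17.2 for AEBP2. JARID2 went from place 5 in control to place 10 in auxin, at 44.1 ± 0.164, separate from the other 9, and EZH1 from place 10 to place 5, at 88.4 ± 1.82. The place of EZH1 in auxin is not settled, since its libraries overlapped those of MTF2 (88.2 in the mean) and PHF19 (82.1). Without division by span, JARID2 was first of the 10 in control. PHF1, the shortest gene and in place 2 per kb, was then in place 10. The order therefore depends on the division, which raises short genes relative to long ones.

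The genes whose values over the 4 libraries were most like those of JARID2 were taken from 287 other called genes whose mean reached 50, by Euclidean distance between centred log2 values. They were 3 lncRNA genes on other chromosomes, and with so few libraries this likeness says little beyond a similar fall. AC092567.1 (chromosome 2, 62826064 to 62858438, minus strand, distance 0.168) had 2730 and 2641 in control and 989 and 947 in auxin. AC020611.2 (chromosome 12, 64038562 to 64097618, minus strand, distance 0.199) had 2568 and 2394.5 in control and 991 and 1012 in auxin. AC003093.1 (chromosome 7, 24778444 to 24795496, minus strand, distance 0.221) had 554 and 437 in control and 212 and 182 in auxin. All 3 calls were lost on the deposited scale, and that of AC003093.1 also without the filter on low values and without either control library.

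The wider Polycomb and opposing machinery was followed in 6 further lists, in which limma called no gene. For comparison, 10.2% of all genes tested had an unadjusted p under 0.05. Of the other PRC2 partners, 4 of 5 were tested and none had an unadjusted p under 0.05. RBBP7, the close paralogue of RBBP4, had the smallest adjusted p (0.568; log2 fold change -0.33, SE 0.17). The list median was -0.23, against 0.0089 over all genes tested. PRC1 is the companion complex that ubiquitinates histone H2A and binds the PRC2 mark. Its 30 subunit genes were all tested, with a median of -0.086, and 7 had an unadjusted p under 0.05, 3 higher and 4 lower. BCOR, a corepressor of a variant PRC1, named after its values were seen, went from 28898 to 41650.0 in the mean (limma adjusted p = 0.0677; log2 fold change 0.53, SE 0.11). It was called with scaling by library total, and without each of control replicate 1, auxin replicate 1 and auxin replicate 2 (0.52 to 0.67), but not without control replicate 2 (0.40). CBX2, a reader of the PRC2 mark, had the lowest value of the list, at -0.58.

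Of the H3K27 demethylases and the H2A deubiquitinase complex, all 10 genes were tested, the median was -0.12 and 1 had an unadjusted p under 0.05. The 15 trithorax genes, whose products oppose Polycomb, had a median of -0.042, again with 1. The 12 genes of the jumonji-ARID family, relatives of JARID2 by domain, had a median of 0.19, and 3 had an unadjusted p under 0.05. KDM5B, a JARID1 family histone demethylase named after its values were seen, was highest at 0.53 (SE 0.13, limma adjusted p = 0.126), opposite in sign to JARID2. Of 30 developmental regulators that PRC2 is known to repress in other cells, 19 passed the filter, since the rest had almost no signal. Their median was -0.19 and 1 had an unadjusted p under 0.05. TBX3, a T-box factor gene named after its values were seen, was at 0.79 (SE 0.38) and depended on single libraries: it was 1.49 and 1.10, and called, without control replicate 1 and auxin replicate 2, which leave 1 library in a group and take the spread from the other group and the trend, and 0.10 and 0.49 without control replicate 2 and auxin replicate 1.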

How the data were processed

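Per the labels' protocols, rRNA-depleted human RNA (200 µg) was mixed with 20 µg of mRNA from fly S2 cells, labelled with 0.2 mM EU for 2 h, before capture, and a directional library kit was used. Per the submitters' processing notes, Trimmomatic 0.39, Bowtie2 2.4.5 and deepTools 3.5.1 were used with builds hg38 and dm6. The counter, annotation and scaling are not given in the sources used here. The authors deposited 1 table with a signal per gene and library. A control column with a misspelt name was taken as control replicate 2, from its number. Fly values were not used here. Starts count from 0 in the table (20020 of 37844 matched symbols started 1 base before RefSeq's GRCh38 start, and 99.8% overlapped the RefSeq gene) and are printed 1 higher.

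Genes were tested where the signal, rescaled to the median total, was at least 10 in 2 or more libraries and the sum was at least 15. Libraries were scaled by weighted trimmed means of log ratios (30% of ratios and 5% of levels trimmed), and log2(value + 1) was fitted with limma 3.58.1 (R 4.3.3; lmFit, eBayes with trend), auxin against control, with Benjamini-Hochberg adjustment over all genes and a threshold of 0.05. Folds of low genes are understated on that scale. The procedure was also run on simulated data with independent libraries. These lacked the replicate differences shared between groups that are described below, and nothing is drawn from that run here. Members, lists and tests were chosen with earlier results of these data known. Named genes were all members, genes overlapping JARID2 and its nearest protein-coding genes, called genes of each list, and the 3 called genes nearest to JARID2 in pattern; other names were chosen after their values were seen. Figures were drawn with Python 3.11.15 and matplotlib 3.10.9.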

Additional observations from a re-analysis of the deposited data

How the results depend on the processing

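JARID2 had a log2 fold change of -1.46 and kept its direction and its call under every alternative except the deposited scale (-1.48, not called); leaving out single libraries gave -1.60 to -1.32. Over all genes, 289 were called, and 82 with an adjusted p under 0.01, 55 on the deposited scale and 132 to 681 without single libraries, the lowest without control replicate 2. The members called were 1, with 0 on the deposited scale and 1 to 2 without single libraries, EZH2 being the second. PHF19 and PHF1 turned to 0.0057 and 0.025 with library totals, and ranged from -0.24 to 0.19 and from -0.052 to 0.040 without single libraries; DTNBP1 ranged from -0.10 to 0.029. BCOR made 1 PRC1 subunit called with library totals. Without single libraries, 0 to 1 genes were called among PRC1 subunits (BCOR), developmental Polycomb targets (TBX3) and locus genes (AL138720.1). By undivided signal JARID2 was in place 1 of the members in control and PHF1 in place 10. The cause of these changes was not tested.

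Nothing in the labels ties same-numbered libraries to 1 day or culture, and 2 pairs cannot show it. Replicate differences correlated across genes between groups (Pearson's r 0.231 and Spearman's rho 0.306 over all genes tested, 0.462 and 0.448 over the 29158 with a mean of at least 50, among them all members). The replicate block gave 4273 called genes (10.8%) and 5 members (JARID2, EZH2, RBBP4, SUZ12 and EED), all lower. The block also called 8 PRC1 subunits, 3 jumonji-ARID genes, 3 developmental targets, 3 locus genes (5S_rRNA, AL138720.1 and JARID2-AS1), and 1 gene each of the other PRC2 partners (RBBP7), the demethylase list (FOXK1) and the trithorax list (NSD2). With the block, on the deposited scale and without either auxin library, limma pooled the spread fully along 1 trend; without a library its group keeps 1, assumed to vary like the other.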
